A study of Mus musculus with 32 samples.

Results

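The complement genes described here are C1qa, C1qb, C1qc, C1ra, C2, C3, C4b, Cfb and C3ar1. They were taken by symbol from the deposited expression table, which held all 9 among 22329 genes. MC38 is a mouse colon adenocarcinoma line, and it was measured in 4 groups of untreated samples. These were 12 subcutaneous tumors and 5 cultures of a line resistant to anti-PD-1, an antibody against a T cell checkpoint receptor, and 13 subcutaneous tumors and 2 cultures of the parental line. All tumors grew in C57BL6/J mice, whose age and sex are not given in the sources used here, and neither is how the resistant line was derived or whether it is 1 clone. No label says that cultured libraries of a group were grown separately, so p-values for cultures cover only variation between these libraries, possibly technical. Values are TPM, a share of each library corrected for gene length, so levels of different genes can be set side by side. Read depth is unknown, and precision rests on the spread between libraries. Genes at 1 TPM or more numbered 11573 to 12809 in resistant tumors, 11963 to 13308 in parental tumors, 10470 to 10799 in resistant cultures and 10654 to 10978 in parental cultures.

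Complement is a cascade of plasma and tissue proteins that tags surfaces for uptake, calls in leukocytes and can pierce membranes. The classical pathway starts when C1q, built from the chains of C1qa, C1qb and C1qc, binds a surface and activates the proteases C1r and C1s, which cut C4 and C2 into an enzyme that splits C3. The alternative pathway splits C3 with an enzyme that holds factor B, the product of Cfb, and C3ar1 encodes the receptor of the released fragment C3a. The liver makes most of the circulating components, while C1q comes largely from macrophages and related cells, and fibroblasts, tumor cells and myeloid cells can make C3, C1r, C1s and factor B locally.

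Cultured MC38 cells expressed few of these genes. Counting a gene as expressed in culture when it reached 1 TPM in at least 2 of the 7 cultured libraries left C1ra, C2 and C3, and the other 6 were seen in tumors only. C1ra, a mouse copy of C1r whose near copy C1rb could share its reads, had 2.26, 2.09, 1.66, 0.582 and 2.41 TPM in resistant cultures and 1.07 and 1.47 TPM in parental cultures. C2, the protease that joins C4 in the classical enzyme, had 1.23, 3.07, 1.57, 0.423 and 1.22 TPM in resistant cultures and 0.862 and 0 TPM in parental cultures. C3, the central component, had 0.445, 0.312, 0.907, 4.55 and 1.34 TPM in resistant cultures and 1.08 and 0.81 TPM in parental cultures. All of these levels were low, and resistant and parental cultures overlapped for each gene. At the rule's edge, C3 passed it with 3 of 7 cultures and C1qb missed it with 1 of 7, a lone resistant culture at 1.01 TPM. A threshold of 0.5 TPM kept the same number, 3, and 5 TPM left 0.

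The 6 genes seen in tumors only were at or near 0 in culture. C1qa had 0, 0, 0.329, 0.311 and 0.613 TPM in resistant cultures and 0 and 0.122 TPM in parental cultures. C1qc and C3ar1 reached at most 0.484 and 0.726 TPM in resistant cultures, and at most 0.11 and 0.278 TPM in parental cultures. Cfb reached at most 0.0495 TPM in resistant cultures and 0.12 TPM in parental cultures. C4b, which encodes C4 and whose near copy C4a is not analysed here, was at 0 in all 5 resistant cultures and at 0 and 0.0276 TPM in parental cultures. Macrophage markers were uneven in culture. Aif1 was at 0 in every cultured library, Adgre1 and Ms4a7 were at 0 in both parental cultures, and the 10 macrophage markers together summed to 26.6 to 33.6 TPM in resistant cultures and 27.9 to 47.9 TPM in parental cultures. The leukocyte marker Ptprc was at most 0.147 TPM in any cultured library. The labelled cell type is colon adenocarcinoma, but its 6 epithelial markers together reached at most 0.234 TPM in resistant cultures and 1.73 TPM in parental cultures, with Krt8 at 0 in all resistant cultures and Epcam and Krt18 at 0 in both parental ones.

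**Figure D1:**
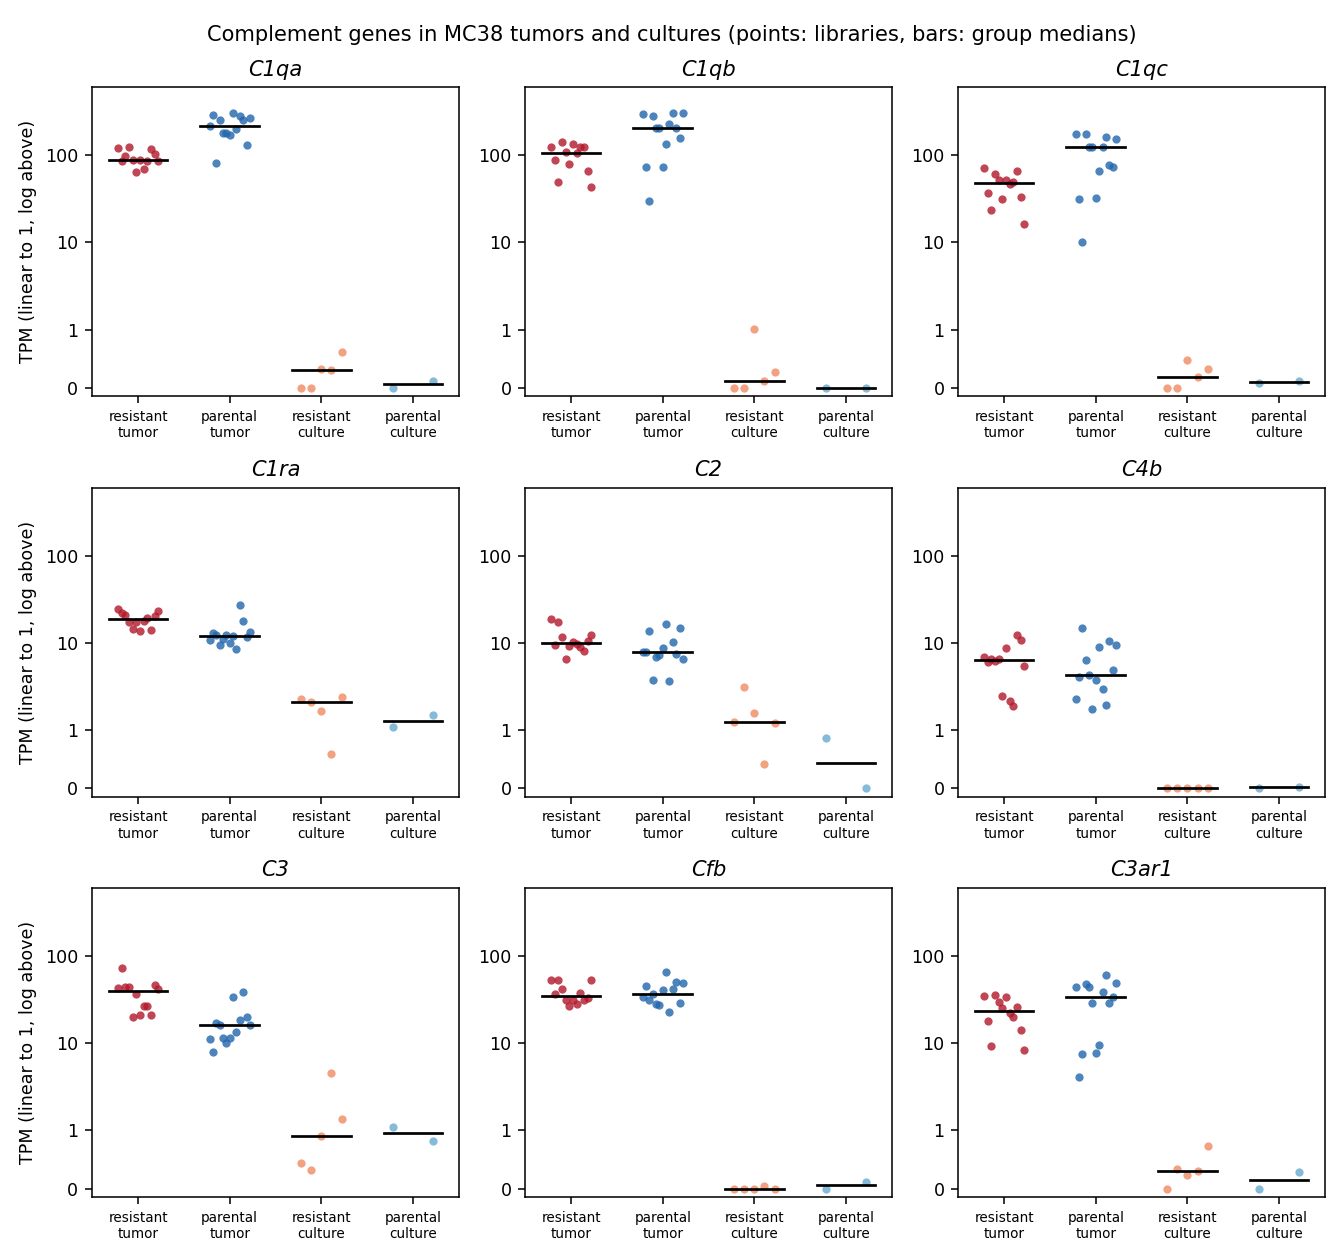
TPM of the 9 complement genes in each library of the 4 groups, with a bar at each group's median. The axis is linear up to 1 TPM and logarithmic above it. All tumors sit above all cultures of their line, and C1qa in resistant tumors, at 63.8 to 124 TPM, sits below 12 of the 13 parental tumors.

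Set against culture, all 9 genes were higher in tumors of both lines. For the 6 genes seen in tumors only, this restates how they were sorted: they entered the fits through tumors alone, so their calls and differences describe them and lend no support. C1ra, C2 and C3 reached 1 TPM in 4, 4 and 2 of the 5 resistant cultures and in 2, 0 and 1 of the 2 parental cultures. The filter asked for 5 libraries at 1 TPM in the resistant line and 2 in the parental line. Only C1ra in the parental line would pass it on cultures alone, so the other calls of these 3 genes carry the same limit. In resistant tumors against resistant cultures limma called 9 of 9 higher. Of the 12312 genes tested there, 50.3% were called, 35.3% higher and 15% lower. In parental tumors against parental cultures limma again called 9 of 9 higher, where 22.1% of 14348 genes were called, 16.1% higher and 5.99% lower. Every tumor exceeded every culture of its line for each of the 9, under the same limits. Such a separation held for 17.3% of the genes tested in the resistant line and 19.6% in the parental line. The differences on the log2(TPM + 1) scale in the resistant line were 6.24 for C1qa, 6.25 for C1qb, 5.16 for C1qc, 5.24 for Cfb, 4.09 for C3ar1, 4.04 for C3, 2.84 for C1ra and 2.29 for C2. In the parental line they were 7.60 for C1qa, 6.21 for C1qc, 5.17 for Cfb, 4.46 for C3ar1, 3.11 for C3, 2.74 for C2, 2.57 for C1ra and 2.54 for C4b. C4b in resistant cultures and C1qb in parental cultures were listed at 0, so no fold is given for them, and the added 1 understates the change of a gene that is near 0 in culture. The largest limma adjusted p among the 9 was 1.91e-07 in the resistant line and 0.00173 in the parental line, both for C4b. The median gene also differed, by 0.18 in the resistant and 0.21 in the parental line. Quantile normalization moved those medians to -0.10 and -0.04 and the share of calls that were higher to 43.7% from 70.2% in the resistant line and to 52.1% from 72.9% in the parental line, and median-of-ratios scaling moved the resistant share to 58.6%. The 9 genes were called higher under both scalings in both lines. Tumor and cultured libraries also carry different series of titles, whose meaning is not given. Any difference between these series cannot be told apart from that between tumors and cultures.

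The main question was how the same genes differ between untreated tumors of the lines. Of the 9, limma called 2 higher and 3 lower in resistant tumors, and 4 were not called. Among all 12095 genes tested, 30.2% were called, 16.3% higher and 13.9% lower. The 3 C1q chains were lower and C1ra and C3 were higher, while C2, C4b, Cfb and C3ar1 did not pass. In whole tumors, fewer cells of a type and less RNA per cell cannot be told apart.

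C1q was the most abundant part of this set in tumors, with a lower median share in resistant tumors. The 3 chains made up 50.1 to 73.2% of the summed TPM of the 9 genes in resistant tumors (median 65.7%) and 55.6 to 86.1% in parental tumors (median 82.8%). The summed TPM itself ran from 288 to 498 in resistant tumors and from 217 to 910 in parental tumors.

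C1qa, the A chain, had 63.8 TPM in the lowest, 86.9 in the median and 124 in the highest resistant tumor, against 80.8, 214 and 300 TPM in parental tumors. Parental replicate 3, at 80.8 TPM, was the one parental tumor inside the resistant range. The means were 94.1 ± 19.6 TPM in resistant tumors and 216 ± 66.1 TPM in parental tumors (SD, n = 12 and 13), and the log2 difference was -1.14 ± 0.17 (SE, limma adjusted p = 1.04e-05). C1qb, the B chain, had 42.7, 107 and 141 TPM in the lowest, median and highest resistant tumors, against 29.5, 206 and 307 TPM in parental tumors. C1qc, the C chain, had 16.4, 47.5 and 71.0 TPM in resistant tumors, against 10.1, 122 and 176 TPM in parental tumors. For both chains the groups overlapped, since 4 parental tumors lay within or below the resistant range. C1qb fell by 0.80 on the log2 scale (SE 0.30, limma adjusted p = 0.0469) and C1qc by 0.94 (SE 0.35, adjusted p = 0.0452). Both calls were close to the threshold: they were not made with no filter on low values (adjusted p = 0.0805 for C1qb and 0.0781 for C1qc), nor in 17 and 18 of the 25 fits that left out 1 tumor.

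The 4 overlapping parental tumors, replicates 2, 3, 7 and 8, also stood apart in base composition. A GC index was computed for each tumor library by subtracting the median log2 level of GC-poor genes from that of GC-rich ones. It was 0.535 to 0.809 in these 4, against -0.267 to 0.260 in the other 9 parental tumors and -0.519 to 0.258 in resistant tumors. In these 4, C1qb had 29.5 to 132 TPM against 159 to 307 TPM in the other parental tumors, C1qc had 10.1 to 65.5 against 72.2 to 176 TPM, and C3ar1 had 4.10 to 9.50 against 28.6 to 60.4 TPM, with no overlap for any of them. C1qa overlapped, with 80.8 to 300 TPM in these 4 and 132 to 279 TPM in the others. The longest transcripts of C1qa, C1qb and C1qc are 59.5, 57.4 and 57.5% GC, and that of C3ar1 is 43% GC.

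The chains of 1 protein complex therefore did not keep a fixed ratio. The level of C1qa over that of C1qb was 2.27 to 3.96 in these 4 parental tumors and 0.730 to 1.22 in the other 9. In resistant tumors it was 1.56 to 2.01 in replicates 3, 11 and 12, whose GC indices were 0.00464 to 0.258, and 0.652 to 0.977 in the other 9, whose indices were -0.519 to 0.0918. C1qc over C1qb varied less, from 0.384 to 0.569 in resistant tumors and from 0.343 to 0.620 in parental tumors. Which property of these libraries goes with the ratio was not tested.

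**Figure D2:**
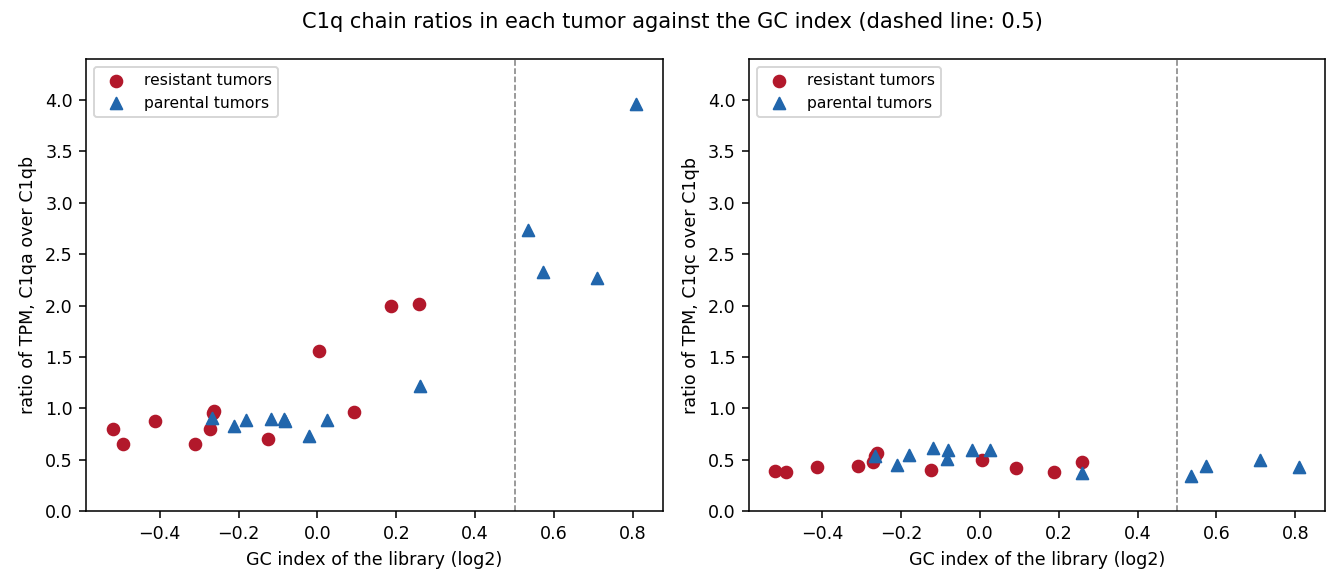
Ratio of TPM of C1qa over C1qb (left) and of C1qc over C1qb (right) in each tumor, against the GC index of its library on the log2 scale; the dashed line marks an index of 0.5. The 4 parental tumors right of it have C1qa over C1qb of 2.27 to 3.96, and C1qc over C1qb stays between 0.343 and 0.620 in all tumors.

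Without these 4 parental tumors, the line difference of all 3 chains was called, at -1.20 for C1qa, -1.35 for C1qb and -1.58 for C1qc (limma adjusted p = 9.33e-07, 1.82e-05 and 1.53e-05). These 4 held the 4 lowest parental values of C1qb and C1qc, so leaving them out must widen the gap for both, and the firmer calls lend no support. With the GC index in the model over all 25 tumors the differences were -1.13, -1.42 and -1.64. The index was highest in the same 4 tumors, so for C1qb and C1qc that fit lends no support either. With the level of the leukocyte gene Ptprc as a covariate, C1qa was called lower by a similar amount (-0.96, adjusted p = 2.79e-05). C1qb (-0.25, adjusted p = 0.263) and C1qc (-0.33, adjusted p = 0.253) were not called in that fit. The longest transcript of Ptprc is 39.4% GC, within the GC-poor class of the index. Leukocyte content and base composition therefore cannot be told apart by this covariate. Most macrophage markers were also lower in resistant tumors: 7 of 10 were called lower, among them Ms4a7 (-1.50), Adgre1 (-1.19) and Cd68 (-1.06). Cd163 (1.07) and Mertk (0.59) were called higher. Of all genes tested, 13.9% were called lower and 16.3% higher. Some of these markers do not mark host macrophages alone. Cd68 averaged 6.12 TPM in resistant and 21.7 TPM in parental cultures, Cd14 17.5 and 12.4 TPM, and Mertk 6.20 and 3.49 TPM. Ms4a7 and Adgre1 averaged 0.161 and 0.0646 TPM in resistant cultures and 0 in parental cultures. The summed level of the 10 macrophage markers was 223 to 338 TPM in resistant tumors and 247 to 635 TPM in parental tumors, while Ptprc did not pass (-0.35, limma adjusted p = 0.125). Of neutrophil markers 2 of 3 tested were called lower, S100a8 (-1.61) and Csf3r (-0.85), and 0 of 4 T cell and 0 of 4 endothelial markers were called. The part of macrophage content in the C1q difference was not tested.

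C3ar1, the C3a receptor, is the one receptor among the 9 genes. It had 8.42, 23.6 and 35.3 TPM in the lowest, median and highest resistant tumors, against 4.10, 33.4 and 60.4 TPM in parental tumors. The groups overlapped widely, with the 4 parental tumors of high GC index and resistant replicates 3 and 12 at the bottom, and the difference did not pass (-0.18 ± 0.36 SE, limma adjusted p = 0.742). Its call depended on those tumors, the 4 lowest parental ones, whose removal must widen the gap. Without them C3ar1 was called lower (-0.91, adjusted p = 0.00385), and so it was with the GC index in the model (-1.09, adjusted p = 8.94e-06). The index was above 0.5 in the same 4 tumors and in 0 resistant tumors, so that fit draws on them too. Neither call lends support. With Ptprc as a covariate, under the limit given for that gene, the sign for C3ar1 turned and it was not called (0.42, adjusted p = 0.167).

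C3 and C1ra changed in the opposite direction to C1q. C3 had 20.01 TPM in the lowest, 39.3 in the median and 73.1 in the highest resistant tumor, against 7.91, 15.98 and 38.6 TPM in parental tumors. Of the 13 parental tumors, 10 lay below the lowest resistant tumor. The means were 37.1 ± 15.3 TPM in resistant tumors and 17.4 ± 9.11 TPM in parental tumors, and the log2 difference was 1.08 ± 0.22 (SE, limma adjusted p = 0.000620). C1ra had 13.6, 18.5 and 24.1 TPM in resistant tumors, against 8.39, 11.8 and 27.2 TPM in parental tumors. Of the 13 parental tumors, 11 lay below the lowest resistant tumor, but parental replicate 10 held the highest value of all. C1ra rose by 0.53 (SE 0.14, limma adjusted p = 0.00483). Both calls held without the 4 parental tumors of high GC index and under both covariates. Of 7 fibroblast markers, Dcn, Col1a1, Col1a2 and Col3a1 were called higher in resistant tumors and 0 lower, where 16.3% of all genes tested were called higher and 13.9% lower. Lum (-0.60), Pdgfra (-0.28) and Thy1 (-0.22) did not pass. Dcn also averaged 589 TPM in resistant cultures and 4.24 TPM in parental cultures, so it does not mark host fibroblasts alone. The 7 summed to 695 to 2110 TPM in resistant tumors and 229 to 1531 TPM in parental tumors. They summed to 264 to 838 TPM in resistant cultures and 74.5 to 120 TPM in parental cultures. Their part in the difference of C3 and C1ra was not tested.

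C2, C4b and Cfb did not pass between the tumor lines. C2 had 6.55, 9.88 and 18.5 TPM in the lowest, median and highest resistant tumors, against 3.60, 7.86 and 16.4 TPM in parental tumors, a log2 difference of 0.34 ± 0.19 (SE, limma adjusted p = 0.186). It was called higher without the 4 parental tumors of high GC index (0.52, adjusted p = 0.0464) and with the GC index in the model (0.54, adjusted p = 0.0395). C2 averaged 11.6 TPM in these 4 and 7.58 TPM in the other parental tumors, so leaving them out must widen the gap. The fit with the index draws on the same 4 tumors, and neither call lends support. C4b had 1.90, 6.38 and 12.4 TPM in resistant tumors, against 1.74, 4.30 and 14.7 TPM in parental tumors (0.17 ± 0.29 SE, adjusted p = 0.687). Cfb, the protease of the alternative enzyme, had 26.8, 35.0 and 53.7 TPM in resistant tumors, against 22.9, 36.9 and 64.8 TPM in parental tumors. The Cfb ranges nearly coincided, and its difference was close to 0 with SE 0.15 (limma adjusted p = 0.997).

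**Figure D3:**
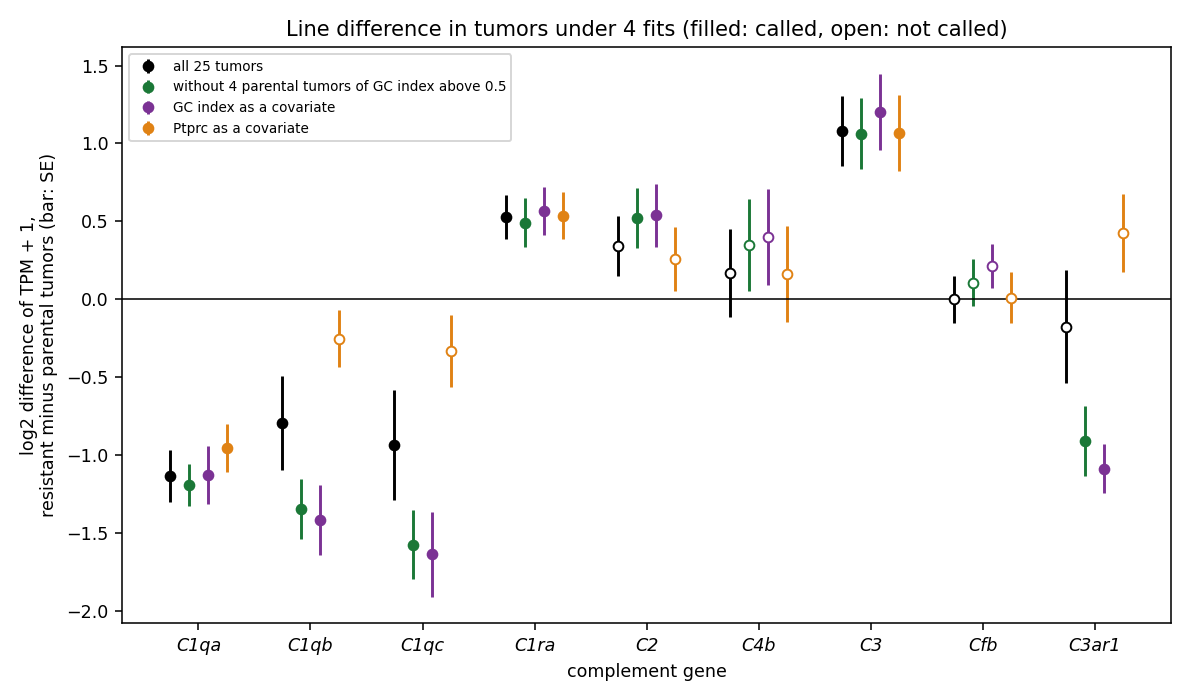
Log2 difference of TPM + 1, resistant minus parental tumors, for the 9 genes under 4 fits: all 25 tumors, without the 4 parental tumors of GC index above 0.5, with the GC index in the model, and with Ptprc as a covariate. Bars are SE, filled points were called. C1qa, C1ra and C3 keep their call in all 4, while C3ar1 runs from -1.09 to 0.42.

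In culture none of the 3 tested genes was called between the lines, where limma called 14.2% of 11201 genes, 6.15% higher and 8.04% lower. The log2 differences, resistant minus parental, were 0.26 ± 0.34 for C1ra, 0.79 ± 0.42 for C2 and 0.15 ± 0.52 for C3 (SE), with adjusted p of 0.658, 0.246 and 0.878, and 0 of the 3 had an unadjusted p under 0.05. The other 6 genes were too low to be tested. The sign for C3 rested on resistant culture replicate 4, at 4.55 TPM: without it the difference was -0.19. Whether the line difference itself differed between tumors and cultures was fitted over all 32 libraries. For genes near 0 in culture the log2(TPM + 1) scale holds the culture difference near 0, so this term largely repeats the tumor difference. It was called for C1qa (-1.35 ± 0.37 SE, limma adjusted p = 0.0259), where 4.01% of 15061 genes were called, 1.61% lower, and not for C3 (0.93 ± 0.55, adjusted p = 0.468), C1ra (0.27 ± 0.34, adjusted p = 0.822) or the other 6. The C1qa call was not made without either parental culture (adjusted p = 0.160 and 0.153) or without resistant culture replicate 5 (0.0573). Without the 4 parental tumors of high GC index, C1qb (-1.65, adjusted p = 0.0108) and C1qc (-1.69, adjusted p = 0.0189) were called too, under the same limit.

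Among tumors, C1qb, C1qc and C3ar1 varied together most closely. After each line's mean was subtracted, Pearson's r of log2(TPM + 1) over the 25 tumors was 0.98 between C1qb and C1qc, 0.89 between C1qb and C3ar1 and 0.87 between C1qc and C3ar1. C1qa followed C1qb less closely, with 0.52, and had 0.57 with Cfb. C3, C1ra, C2 and Cfb had r of 0.42 to 0.50 with each other in every pair. These values describe libraries that share depth and base composition. Without the 4 parental tumors of high GC index, r was 0.93 for C1qb with C1qc and 0.42 for C1qa with C1qb over the remaining 21 tumors.

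Of 12 relations between pairs of genes tested within a line, 1 passed the adjustment over all 12 by Pearson's r. It was Cfb with C2, which encode related proteases, over the 12 resistant tumors (r = 0.80, permutation p = 0.00162, adjusted p = 0.0194; rho = 0.66, permutation p = 0.0217, adjusted p = 0.260), and r was 0.74 without the 2 tumors farthest from the median of Cfb. In parental tumors C1qa with C1qb had r = 0.60 (permutation p = 0.0349, adjusted p = 0.209; rho = 0.41, permutation p = 0.169, adjusted p = 0.337) and 0.08 without the 2 farthest. C3 with Cfb did not pass in resistant tumors (r = 0.48, permutation p = 0.119, adjusted p = 0.357; rho = 0.50, permutation p = 0.0982, adjusted p = 0.336) or in parental tumors (r = 0.51, permutation p = 0.0721, adjusted p = 0.289; rho = 0.45, permutation p = 0.129, adjusted p = 0.336), where r was -0.03 without the 2 farthest. Cfb with C2 did not pass in parental tumors (r = 0.35, permutation p = 0.234, adjusted p = 0.562; rho = 0.31, permutation p = 0.296, adjusted p = 0.507), where r was -0.25 without the 2 farthest. Over the 9 other parental tumors, without those of high GC index, C1qa with C1qb had r = 0.84 (exact permutation p = 0.00343, adjusted p = 0.0206 over 6 relations). Its rho was 0.90 (exact permutation p = 0.00203, adjusted p = 0.0122), and r was 0.63 without the 2 farthest. The 4 tumors left out were those with the highest parental C1qa over C1qb, 2.27 to 3.96 against 0.730 to 1.22 in the 9 kept. Leaving them out favors a closer relation of this pair, so the higher r and rho lend no support. Of the 12 relations over all tumors of a line, all but Cfb with C2 in resistant tumors and C1qa with C1qb in parental tumors had adjusted permutation p of 0.289 or more.

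The genes most like each of the 9, by the same r over 25 tumors among 9750 genes of at least 5 TPM on average, were not the same for every C1q chain. C1qb was followed most closely by Ctss (0.95), Mpeg1 (0.94) and Ang (0.93), and C1qc by Slamf9 (0.93), Ang (0.92) and Ctss (0.92). C1qa was followed by Arhgap25 (0.90), Apoe (0.87) and Cyth4 (0.87), and C3ar1 by Rab8b, Abcg1 and Tm9sf3, all at 0.97. C4b was followed by F13a1 (0.85), Sod3 (0.83) and Mrc1 (0.82), and Cfb by Olfml3 (0.84), Tgm2 (0.83) and Selplg (0.82). The likeness was weaker for C3, with Cdc14b (0.75), Nfkbie (0.73) and Gpihbp1 (0.72), for C1ra, with Fkbp7 (0.77), S1pr3 (0.74) and Tor4a (0.73), and for C2, with Nudt13 (0.72), Pde6d (0.70) and Chpf2 (0.69). Without the 4 parental tumors of high GC index, Slamf9 stayed first for C1qc (0.94) and Arhgap25 was second for C1qa (0.83), while none of the 3 named for C1qb or C3ar1 remained among their first 3.

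The promoters of C1qb, C1qc and C3ar1, which varied together over tumors, and of C3, which differed the other way between the lines, are shown as the 250 bases before the RefSeq start on GRCm38.p6. Of the 9 genes, 5 matched the promoter table. All 4 genes lie on the minus strand, C1qb at chr4:136886201-136886450, C1qc at chr4:136892915-136893164, C3ar1 at chr6:122856158-122856407 and C3 at chr17:57228137-57228386, and each sequence is read 5′ to 3′ along the gene. Capitals mark matches, on either strand, to GAGGAA, a core bound by PU.1 and other ETS factors, or to TTGCNNAA, a C/EBP motif.
C1qb: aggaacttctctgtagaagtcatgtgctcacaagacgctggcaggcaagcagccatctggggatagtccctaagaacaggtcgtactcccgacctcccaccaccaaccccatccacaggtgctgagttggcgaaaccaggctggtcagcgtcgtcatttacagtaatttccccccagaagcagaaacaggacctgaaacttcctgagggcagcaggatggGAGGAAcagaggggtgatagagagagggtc
C1qc: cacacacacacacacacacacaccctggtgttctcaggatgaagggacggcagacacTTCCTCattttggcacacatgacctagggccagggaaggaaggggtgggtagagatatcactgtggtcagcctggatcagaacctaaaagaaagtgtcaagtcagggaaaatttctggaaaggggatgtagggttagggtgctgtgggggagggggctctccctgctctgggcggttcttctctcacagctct
C3ar1: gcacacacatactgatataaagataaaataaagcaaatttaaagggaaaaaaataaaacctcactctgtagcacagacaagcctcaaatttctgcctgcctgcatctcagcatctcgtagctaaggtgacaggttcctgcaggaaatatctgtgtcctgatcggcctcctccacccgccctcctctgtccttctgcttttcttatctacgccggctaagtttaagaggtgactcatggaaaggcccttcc
C3: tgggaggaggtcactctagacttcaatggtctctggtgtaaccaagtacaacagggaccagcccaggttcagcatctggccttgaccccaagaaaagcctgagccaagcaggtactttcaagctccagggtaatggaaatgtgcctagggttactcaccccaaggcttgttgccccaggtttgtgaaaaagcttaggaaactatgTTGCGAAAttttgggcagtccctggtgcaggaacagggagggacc
GAGGAA began 30 bases before the start in C1qb, and its reverse complement began 193 bases before the start in C1qc. The C/EBP motif began 45 bases before the start in C3. C3ar1 held neither motif while it varied with C1qb and C1qc, and C1ra, the fifth gene in the table, held neither while it rose in resistant tumors like C3. Over 32851 promoters of this length, 23.3% held GAGGAA and 9.56% held TTGCNNAA. The STAT motif TTCNNNGAA, held by 7.02%, and the interferon-stimulated response element, held by 2.98%, had no match in any of the 5 windows. A match is a run of letters and no evidence of binding.

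Other complement genes came from a fixed list of 51, of which 50 were in the table and 41 were not among the 9. In tumors 18 of the 41 were tested, and limma called 1 higher and 6 lower in resistant tumors, with 11 not called. Over all genes tested, 30.2% were called, 16.3% higher and 13.9% lower. The median log2 difference was -0.11 for the 18, against 0.04 over all genes tested. Among regulators, Serping1, the inhibitor of C1r and C1s, averaged 45.8 ± 10.8 TPM in resistant tumors and 23.8 ± 10.6 TPM in parental tumors (0.98 ± 0.17 SE, limma adjusted p = 0.000108). Clu, which blocks the membrane attack complex, fell by 0.88 (adjusted p = 0.00251), and by 0.41 (adjusted p = 0.0245) with the GC index in the model or 0.56 (adjusted p = 0.0238) without the 4 parental tumors of high GC index. Cr1l, a mouse membrane regulator of C3 activation, fell by 0.46 (adjusted p = 0.00992), from a mean of 54.0 TPM in parental to 39.4 TPM in resistant tumors. Cultured cells expressed Cr1l too, at a mean of 30.0 TPM in resistant and 45.4 TPM in parental cultures. Its difference between cultures was not called (-0.61, limma adjusted p = 0.125). Vtn, another inhibitor of membrane attack, fell by 0.74 (adjusted p = 0.00503), at a mean of 2.14 TPM in resistant tumors and 4.33 TPM in parental tumors. Vtn lies under the 5 TPM of the naming rule, and C5ar1, C8g and Fcna were not called; these 4 fall outside that rule and were chosen after their values were seen.

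In the alternative pathway Cfp, properdin, which stabilizes the C3-splitting enzyme, averaged 20.7 ± 8.91 TPM in resistant tumors and 37.2 ± 10.7 TPM in parental tumors (-0.87 ± 0.19 SE, limma adjusted p = 0.00130). Of 7 receptors tested, 0 were called higher and 2 lower, the chains of complement receptor 3: Itgam averaged 40.8 ± 11.6 TPM in resistant tumors and 86.7 ± 28.6 TPM in parental tumors (-1.06 ± 0.18), and Itgb2 averaged 19.4 ± 3.65 and 27.7 ± 6.36 TPM (-0.48 ± 0.12). The Itgb2 call was not made in 1 fit over all libraries (adjusted p = 0.0949). C5ar1, a C5a receptor, did not pass (-0.12). C1s1, the C1s protease, whose near copy C1s2 could share its reads, averaged 27.0 ± 9.81 TPM in resistant tumors and 19.1 ± 11.7 TPM in parental tumors and did not pass (0.63 ± 0.28, adjusted p = 0.0895). It was called without parental replicate 3 (adjusted p = 0.0496) or 11 (0.0399). Among 7 terminal components and 8 lectin pathway genes, 1 each was tested in tumors, C8g and Fcna, and neither was called.

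**Figure D4:**
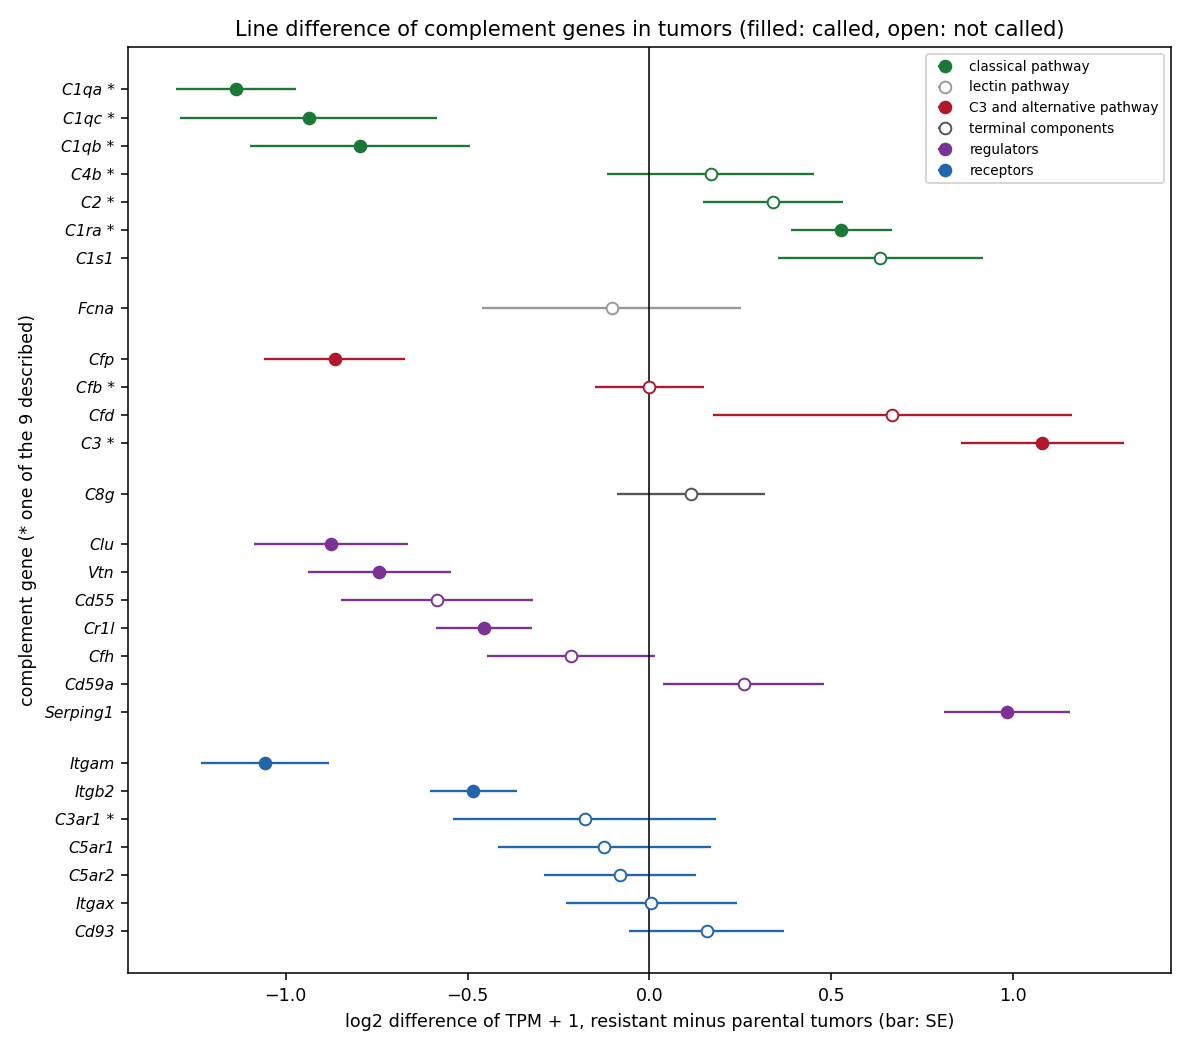
Log2 difference of TPM + 1, resistant minus parental tumors, for the 27 complement genes tested, grouped by role, with SE bars; filled points were called and stars mark the 9 genes described first. C1qa, C1qb, C1qc, Cfp, Clu and Itgam lie left of 0, while C3 (1.08), Serping1 (0.98) and C1ra (0.53) lie right of it.

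In culture 8 of these 41 genes were tested and limma called 0 higher and 2 lower in the resistant line, where 6.15% of all genes tested were called higher and 8.04% lower. C1s1 had a mean of 0.361 ± 0.527 TPM in resistant cultures and 7.03 ± 5.69 TPM in parental cultures (-2.42 ± 0.48 SE, adjusted p = 0.0111), and the call was not made without parental culture replicate 2 (-1.63, adjusted p = 0.109). Clu averaged 9.76 ± 4.88 TPM in resistant cultures and 32.1 ± 3.46 TPM in parental cultures (-1.73 ± 0.39, adjusted p = 0.0184), and was not called without either parental culture (adjusted p = 0.165 and 0.126). The line difference in tumors exceeded that in culture for C1s1 (3.06, adjusted p = 0.00275) and Serping1 (1.41, adjusted p = 0.0251), 2 of the 25 genes of the 41 tested, where 2.4% of all genes were called higher. Serping1 was under 1 TPM in all 7 cultures, so its term largely repeats the tumor difference. Without parental culture replicate 2 neither was called (C1s1 2.26, adjusted p = 0.214; Serping1 1.27, adjusted p = 0.303), and Serping1 was not called without replicate 1 (adjusted p = 0.0758).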

How the data were processed

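Poly(A) RNA from MC38 tumors and cultures was extracted with Qiagen kits and DNase and made into libraries with KAPA RNA HyperPrep, per the labels. The authors deposited 1 table of TPM by mouse gene symbol for 32 libraries, each column summing to 1000000, and all of it was used. STAR and GRCh38, a human build, are named per the submitters' processing notes. The quantifier and annotation are not given in the sources used here, so no coordinates come from the files, and depth per library is unknown.

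The labels' line and setting define the groups, and replicate numbers are only names, given in accession order. limma 3.58.1 (R 4.3.3) was run on log2(TPM + 1) for each comparison, with trended empirical Bayes moderation and two-sided tests. Calls used p-values adjusted by Benjamini and Hochberg across every gene in the fit, at 0.05. Genes below 1 TPM in too many libraries were dropped: the number of libraries at 1 TPM had to match the smaller group, or 2 for the interaction over all 32 libraries. The added 1 understates changes of low genes. The 9 genes and all lists were chosen with earlier results of these data known. Other complement genes were named if called between tumor or culture lines with a mean of 5 TPM or more in the higher group, and the 3 genes most like each of the 9 by r were named.

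The GC index used GENCODE release M21 transcripts, with 2146 GC-rich genes (GC fraction over 0.55) and 1274 GC-poor genes (under 0.42). Promoters came from RefSeq tables of GRCm38.p6. Relations used permutation tests of 100000 resamples, or every pairing over 9 tumors (scipy 1.17.1, with numpy 2.4.6 and pandas 2.3.3, in Python 3.11.15), and figures were drawn in matplotlib 3.10.9. Alternatives were another pseudocount, filters and scalings, 1 fit over all libraries, covariates, a rank-sum test, robust moderation and leaving out each library. The fits were tested on simulated data.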

Additional observations from a re-analysis of the deposited data

Results flagged for a closer look

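In the 5 resistant cultures, 4 of the 15 gene and group combinations with 4 to 10 samples that were examined had 1 library far from the rest. Chance gives about 1 in 20 only for normally distributed values, and here many lay at or near 0. The 15 also share the same 5 libraries, so their count cannot be set against that rate. C1qb was 1.01 TPM in replicate 3, with the others at 0.27 TPM or less. Replicate 4 held the highest C3, at 4.55 TPM, and the highest Cfb, at 0.0495 TPM, a level near 0. Itgb2, the common chain of the leukocyte complement receptors, reached 17.5 TPM in 1 culture, against a group median of 1.75 TPM.

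The line difference in tumors differed from that in culture, by the interaction term of limma over all 32 libraries, for 3 complement genes. It was -1.35 for C1qa (adjusted p = 0.0259), 3.06 for C1s1 (adjusted p = 0.00275) and 1.41 for Serping1 (adjusted p = 0.0251), on the log2(TPM + 1) scale. C1qa and Serping1 were under 1 TPM in all 7 cultures, where the log2(TPM + 1) scale holds the culture difference near 0, so for them the term largely repeats the tumor difference. Each of the 3 was not called without parental culture replicate 2.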

How the results depend on the processing

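C1qa, C1ra and C3 kept their direction and call between tumor lines under every alternative run, and C1ra, C2 and C3 were called higher in tumors than in culture under every alternative of both comparisons that was run. In the main fits against culture only C1ra in the parental line would pass the filter on cultures alone, and at 5 TPM none of the 3 would. Their calls against culture therefore describe these genes and lend no support. Of the 9, 5 were called between tumor lines; 3 were with no filter, 3 with Ptprc as a covariate, 7 with the GC index as a covariate, 7 without the 4 parental tumors of high GC index, and 3 to 5 when 1 tumor was left out. Differences that were not called changed sign for Cfb with Ptprc (0.00999) or the GC index (0.211) as a covariate and without the 4 parental tumors of high GC index (0.11), for C3ar1 with Ptprc (0.42), and for Cfb in the interaction under quantile normalization (-0.0925). Leaving out 1 library gave -0.0568 to 0.0648 for Cfb in tumors, -0.0148 to 0.149 for Cfb in the interaction, -0.19 to 0.33 for C3 in culture and -0.736 to 0.0611 for Cfp in culture. Of the other complement genes, 2 were called in culture, 4 with no filter, 1 at 5 TPM and 0 to 3 when 1 library was left out; 18 in resistant tumors against culture, 9 at 5 TPM; 2 in the interaction, 6 with a pseudocount of 0.1, 5 under quantile normalization and 0 to 3 when 1 library was left out. Over all genes, leaving out 1 library gave 578 to 2116 calls in culture (1590 with all), 1406 to 3602 in parental tumors against culture (3169) and 231 to 714 in the interaction (604). Of the 9 genes, 1 was called in the interaction, 0 to 1 when 1 library was left out and 3 without the 4 parental tumors of high GC index, an alternative chosen after seeing the data. That same step gave r = 0.84 for C1qa with C1qb in parental tumors, against 0.60, but it left out the parental tumors of highest C1qa over C1qb. Genes expressed in culture numbered 3, and 0 at 5 TPM. The cause of these changes was not tested, except that stricter filters test fewer genes and left-out libraries reduce the number of samples. Where 1 parental culture was left, it was assumed to vary like the other samples. No paired analysis was possible because replicate numbers follow the order of deposition and pair no samples. Unknown depth leaves the error of values near 0 unmeasured.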
